A study of Haemulon flavolineatum and Haemulon macrostomum and Haemulon carbonarium with 36 samples.

Results

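The comparison was between the livers of 11 non-vitellogenic *Haemulon flavolineatum* and all 11 *H. macrostomum*, 22 of the 36 fish of the series. These grunts are reef fishes that live side by side in the Caribbean, and the study asked how the livers of sympatric species differ in gene expression. All were wild fish, speared by divers off Bocas del Toro, Panama, on 2 days between morning and midday. They were untreated, and the labels give no sex, age or recent feeding for any fish, so that these cannot be told apart from species. The paper states that most *H. macrostomum* came from outer reefs, with stronger currents and waves than for the other species. Collection habitat therefore cannot be told apart from species either. Each liver gave 1 TagSeq library, in which a count stands for 1 tag near the 3′ end of a messenger RNA, whatever its length. The *H. flavolineatum* were chosen by a measured value: the 6 of 17 fish with vitellogenin above 10000 CPM (counts scaled to a library of 1e6) were left out. Vitellogenin, summed over its isogroups, was at 34207 CPM in the lowest of these 6 fish and at 1734 CPM in fish 11, the highest of the 11 that stayed.

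The counts were per isogroup, a cluster of assembled isoforms, and reads of both species were mapped to the liver transcriptome assembled from 1 *H. macrostomum*. A low count in *H. flavolineatum* and a sequence that no longer matches the *H. macrostomum* reference therefore cannot be told apart, in any result given here. Libraries held 578011 to 2282306 counts in *H. flavolineatum* (median 1667229) and 1149810 to 3252882 in *H. macrostomum* (median 1690551). Counts were scaled by TMM, and levels are given as CPM of the tested isogroups, as the lowest, the median and the highest of the 11 fish of a species. Hepatocyte transcripts filled the libraries of both species. Apolipoprotein A-I was at 16272, 22652 and 31336 CPM in *H. flavolineatum*, against 23554, 34569 and 47363 CPM in *H. macrostomum*, and hemopexin, which binds free heme in blood, was at 7087, 9505 and 11269 CPM in *H. flavolineatum*, against 7813, 11089 and 19757 CPM in *H. macrostomum*. Fibrinogen gamma chain, another hepatocyte product, was low in both, at 0, 7.34 and 28.9 CPM in *H. flavolineatum*, against 9.32, 20.8 and 45.6 CPM in *H. macrostomum*.

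The liver makes most proteins of the blood plasma, among them apolipoproteins, protease inhibitors, clotting factors and complement. It also turns cholesterol into bile acids, oxidizes and conjugates foreign compounds with cytochrome P450 and transferase enzymes, and disposes of the nitrogen of amino acids. In fish it stores fat, supplies part of innate immunity through lectins and antimicrobial peptides, and in many bony fishes encloses strands of exocrine pancreas.

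Between the species, 1388 of 6510 tested isogroups were differentially expressed genes (DEGs) at an adjusted p under 0.01 in edgeR's quasi-likelihood test, which is 21.3% of them. In *H. flavolineatum* 612 were higher (9.4%) and 776 were lower (11.9%). The median log2 fold change was 0.04 over all tested isogroups, and among DEGs the median size was 1.43. Log2 fold changes are of *H. flavolineatum* over *H. macrostomum*, positive where the *H. flavolineatum* level was higher, and ± gives the standard error. Levels did not overlap between the species, fish by fish, for 330 isogroups (5.07%), of which 135 were higher (2.07%) and 195 lower (3%) in *H. flavolineatum*. Scaling by library totals in place of TMM turned the balance round, to 816 higher and 613 lower, with the median log2 fold change over all isogroups at 0.17, and isogroups without overlap were then 154 higher and 155 lower. Unless another fit is named, the adjusted p-values below come from the same edgeR test, with Benjamini-Hochberg adjustment over the 6510 isogroups. Those of counts summed by protein name come from a refit with the same test, adjusted over its 6413 tested entries.

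**Figure D1:**
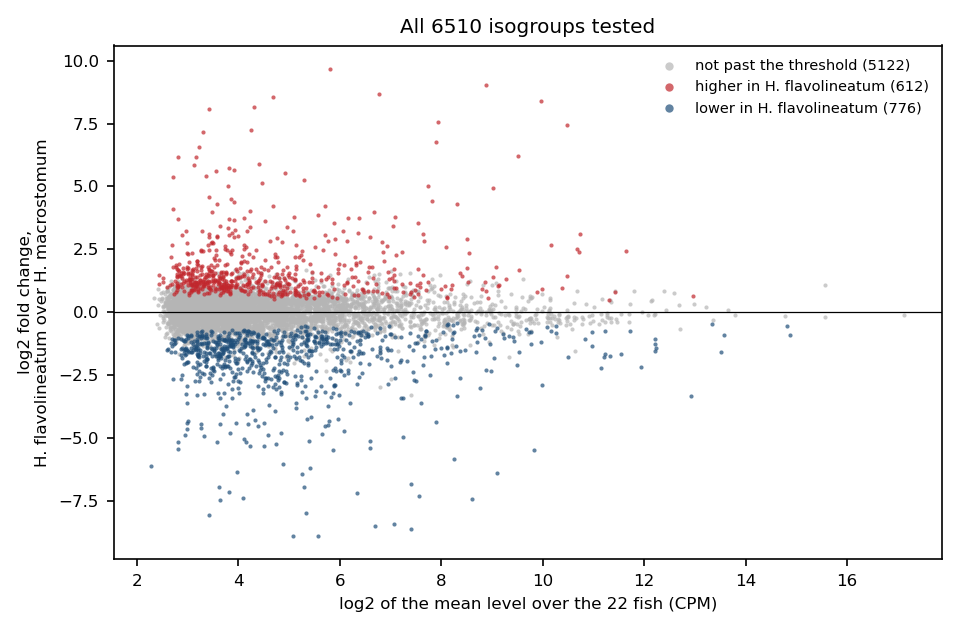
Log2 fold change of *H. flavolineatum* over *H. macrostomum* (vertical axis) against the log2 mean level over the 22 fish in CPM (horizontal axis), 1 point per tested isogroup. The 612 isogroups higher in *H. flavolineatum* are red, the 776 lower are blue, and changes beyond 3 log2 units occur on both sides (75 higher and 102 lower).

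The plot of all isogroups shows changes on both sides at low and at high levels. Protein names were at hand for 1088 of the tested isogroups. Most came from a list of isogroups that the study had called, and 53.5% of named isogroups were DEGs, against 14.9% of unnamed ones. Among the 266 tested isogroups in the part of the annotation at hand, which was not chosen by results, 28.6% were DEGs. An isogroup could also pass the filter on low counts through 1 species alone. Counts over the protein lists below therefore describe the listed isogroups and are not independent evidence. Every listed isogroup carries a name, so the share of 53.5% belongs beside each of these counts. Several isogroups can carry the same protein name and share reads, and each counts separately. A rule on size of change, level and p named 153 isogroups (69 higher and 84 lower), and most of the values below are theirs. Of these, 84 had no overlap between the species, which describes the choice, since lack of overlap was among its criteria.

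Digestive enzymes of the exocrine pancreas were counted in every library, and 4 of the 7 tested were higher in *H. flavolineatum*. The 13 isogroups of pancreatic digestive enzymes summed to 2467, 10860 and 17979 CPM in *H. flavolineatum*, against 464, 3451 and 9522 CPM in *H. macrostomum*. Trypsinogen H2_3a4 (isogroup62223), the precursor of trypsin, was at 363, 2811 and 5394 CPM in *H. flavolineatum*, against 3.202, 11.9 and 76.7 CPM in *H. macrostomum* (log2 fold change 7.43 ± 0.57, adjusted p = 1.3e-10), and every *H. flavolineatum* stood above every *H. macrostomum*. Chymotrypsin B (isogroup23329), a second digestive protease, was at 279, 1624 and 4806 CPM in *H. flavolineatum*, against 40.8, 239 and 771 CPM in *H. macrostomum* (log2 fold change 2.68 ± 0.48, adjusted p = 9.6e-05), with overlap between the species. An alpha-amylase (isogroup41616) and TRY1 (isogroup69011), named for trypsin, were also higher, while carboxypeptidase B and both elastases did not pass the test. In bulk tissue, fewer cells of a type and less RNA per cell cannot be told apart. With the log2 pancreatic level of each fish as a covariate, a fit added after the data were seen, 873 DEGs were called (368 higher and 505 lower), and 811 of them were among the 1388. Of the 153 named isogroups 123 kept their call, and for those described below that lost it the adjusted p under this fit is given beside their values. The covariate itself differed between the species (medians of 10860 and 3451 CPM), so this fit cannot separate pancreatic tissue from species. Where a call was lost under it, pancreatic tissue and lower power cannot be told apart. The part of pancreatic tissue in each difference was not tested.

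Markers of blood and muscle cells were counted at varied levels. Isogroups listed by name for red blood cells, ammonium transporters Rh among them, summed to 19.00, 36.1 and 58.7 CPM in *H. flavolineatum*, against 31.4, 114 and 156 CPM in *H. macrostomum*. Hemoglobin was not among the names at hand, which covered 3233 of 58532 isogroups, so this sum leaves it out. The paper lists the hemoglobin complex as its top cellular component term on the upregulated side for these species. Of the 2 isogroups of this list that passed the filter on low counts, 1, ammonium transporter Rh type B-B (isogroup1764), was lower (6.72 against 75.6 CPM as medians, log2 fold change -2.88 ± 0.45, adjusted p = 1.7e-05). The other, 5-aminolevulinate synthase, did not pass the test. Ammonium transporters Rh, listed by name only, had summed medians of 7.07 against 78.9 CPM. Whether their transcripts came from red blood cells was not tested, so the difference in the summed level does not measure red blood cells. The arrestin red cell isoform had medians of 0.432 against 3.83 CPM, and an erythrocyte membrane protein ran the other way, at 2.83 against 0 CPM. Immunoglobulin heavy chains, summed over 4 isogroups, were at 13.1, 20.6 and 37.99 CPM in *H. flavolineatum*, against 4.16, 18.2 and 239 CPM in *H. macrostomum*. CD45 of leukocytes was at 4.25 CPM or less in every fish. CD4 of helper T cells was at 0.863, 3.39 and 7.54 CPM in *H. flavolineatum*, against 0, 0 and 1.06 CPM in *H. macrostomum*, and integrin alpha L was at 28.7, 41.7 and 49.8 CPM in *H. flavolineatum*, against 35.8, 47.2 and 76.1 CPM in *H. macrostomum*. Granzyme, of cytotoxic lymphocytes, was at 1.54, 6.43 and 68.4 CPM in *H. flavolineatum*, against 0, 0 and 1.24 CPM in *H. macrostomum*, and did not pass the filter on low counts. The gamma chain of the IgE receptor of leukocytes, summed over 2 isogroups, was at 6.602, 12.8 and 23.3 CPM in *H. flavolineatum*, against 3.56, 7.02 and 15.3 CPM in *H. macrostomum*. The 2 isogroups named for Fc receptor-like proteins summed to 0, 127 and 307 CPM in *H. flavolineatum*, against 0, 84.6 and 234 CPM in *H. macrostomum*. Muscle proteins summed to 162, 186 and 259 CPM in *H. flavolineatum*, against 109, 163 and 323 CPM in *H. macrostomum*, among which only a tropomyosin and a myosin light chain passed the filter on low counts. Tropomyosin alpha-3 chain (isogroup127) was at 31.5, 60.4 and 100.4 CPM in *H. flavolineatum*, against 20.01, 32.5 and 57.9 CPM in *H. macrostomum* (log2 fold change 0.99 ± 0.21, adjusted p = 5.4e-04), a call lost with the pancreatic covariate (adjusted p = 0.017), while the highest troponin level in any fish was 5.31 CPM. The part of these cells in the differences was not tested.

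Vitellogenin had chosen the fish, so the levels of yolk and egg envelope transcripts are a description only. Vitellogenin B (isogroup31593), a yolk precursor secreted by the liver, was at 5.66, 19.2 and 1106 CPM in *H. flavolineatum*, against 4.002, 8.87 and 81.1 CPM in *H. macrostomum*. Choriogenin Ha (isogroup3885) and choriogenin H (isogroup14), which build the inner egg envelope, were at 24.01, 71.3 and 1903 CPM in *H. flavolineatum*, against 12.8, 26.1 and 249.5 CPM in *H. macrostomum* for the first and at 27.4, 34.6 and 1432 CPM in *H. flavolineatum*, against 10.4, 28.2 and 102 CPM in *H. macrostomum* for the second. Fish 11 and 2 held the highest values of vitellogenin among the 11 *H. flavolineatum*, and fish 4 the highest among *H. macrostomum*. Zona pellucida sperm-binding protein 3 (isogroup2893), of the same envelope family, ran the other way, at 12.3, 38.6 and 57.00 CPM in *H. flavolineatum*, against 47.2, 114 and 160.0 CPM in *H. macrostomum*. The remaining 8 egg protein isogroups did not pass the filter on low counts. They were vitellogenin Aa, Ab and C, a further vitellogenin B, 2 unspecified vitellogenins, choriogenin L and zona pellucida protein Ba, and their medians were at 6.12 CPM or less in both species. The 4 isogroups that passed are part of the 1388, with 3 on the higher and 1 on the lower side.

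Enzymes of bile acid synthesis were called in both directions, with the largest change in the 12-alpha-hydroxylase. The enzyme that adds the 12-alpha hydroxyl group and so directs synthesis towards cholic acid (7-alpha-hydroxycholest-4-en-3-one 12-alpha-hydroxylase, isogroup483) was at 0, 2.59 and 6.43 CPM in *H. flavolineatum*, against 227, 316 and 491 CPM in *H. macrostomum* (log2 fold change -6.86 ± 0.35, adjusted p = 5.3e-14). Sterol 26-hydroxylase (isogroup330), which oxidizes the side chain of cholesterol in mitochondria, was at 2.56, 4.72 and 13.5 CPM in *H. flavolineatum*, against 23.2, 50.03 and 66.8 CPM in *H. macrostomum* (log2 fold change -2.97 ± 0.26, adjusted p = 1.4e-09). Both sets of levels stood apart in all 22 fish. Another pair of enzymes ran the opposite way, also without overlap.

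Bile acid-CoA:amino acid N-acyltransferase (isogroup9104), which joins bile acids to taurine or glycine, was at 12.7, 28.6 and 56.3 CPM in *H. flavolineatum*, against 0.341, 3.19 and 9.94 CPM in *H. macrostomum* (log2 fold change 3.23 ± 0.34, adjusted p = 3.6e-08). Steroid 5-beta-reductase (3-oxo-5-beta-steroid 4-dehydrogenase, isogroup1517), which saturates the steroid ring on the way to bile acids, was at 203, 295 and 361 CPM in *H. flavolineatum*, against 51.9, 93.7 and 164 CPM in *H. macrostomum* (log2 fold change 1.48 ± 0.19, adjusted p = 1.0e-06). Of the 15 isogroups tested in the list of sterol and bile acid enzymes and carriers (of 35 with such names), 5 were higher, 6 were lower and 4 did not pass, with a median log2 fold change of -0.28. The basolateral bile acid exporter split by subunit: organic solute transporter subunit alpha (isogroup517) was lower at -2.30 and subunit beta (isogroup1290) higher at 0.92, a pair chosen after its values were seen. Farnesoid X receptor (isogroup2266), the nuclear receptor for bile acids, was at 10.2, 18.8 and 22.8 CPM in *H. flavolineatum*, against 6.14, 22.4 and 29.7 CPM in *H. macrostomum*, and did not pass the test (log2 fold change -0.28 ± 0.21, adjusted p = 0.31). The isogroup of its target, small heterodimer partner (isogroup488), did not pass either (log2 fold change 0.56 ± 0.36, adjusted p = 0.24).

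**Figure D2:**
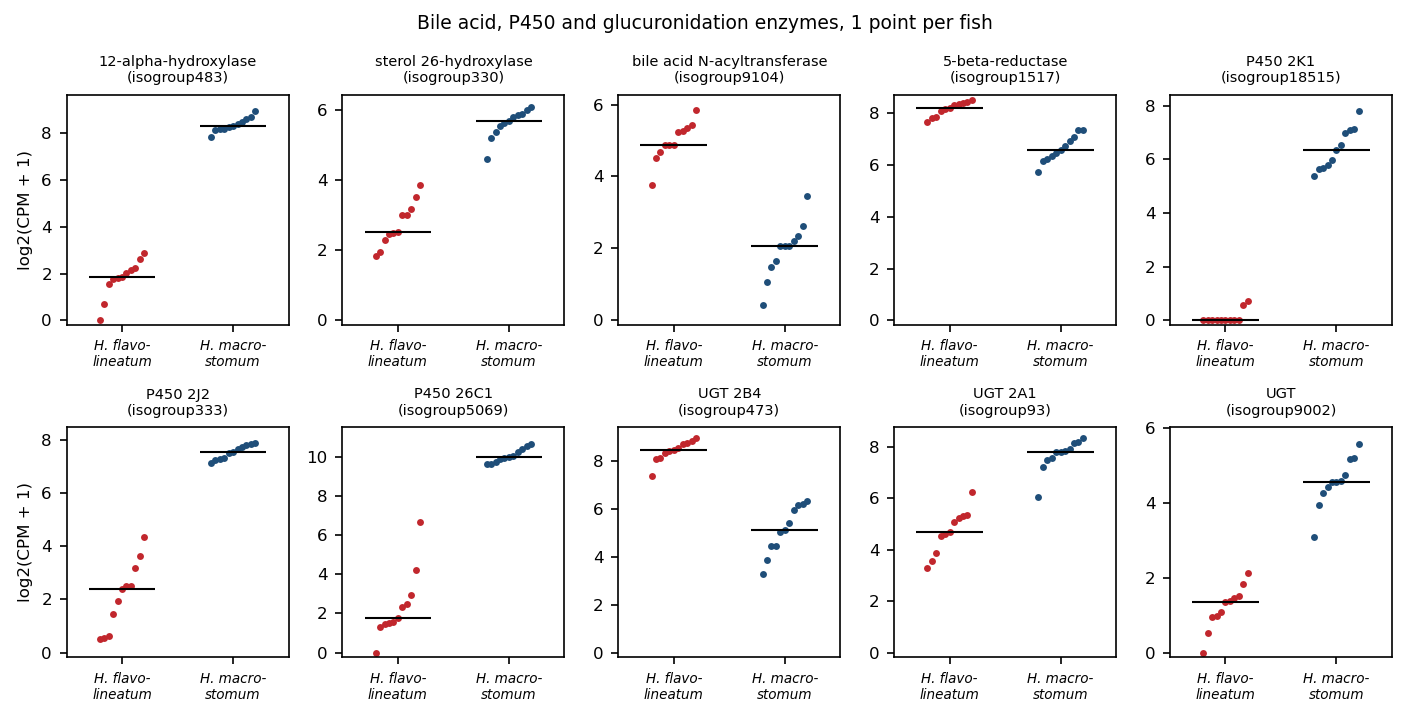
Levels of 10 bile acid, cytochrome P450 and UDP-glucuronosyltransferase (UGT) isogroups as log2(CPM + 1) on the vertical axis, 1 point per fish in order of level, with *H. flavolineatum* in red on the left and *H. macrostomum* in blue on the right of each panel, and a black line at the median. In 9 panels the points of the species do not overlap, and in UGT 2A1 the highest *H. flavolineatum* (76.0 CPM) lies above the lowest *H. macrostomum* (64.8 CPM).

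Cytochrome P450 isogroups were mostly lower in *H. flavolineatum*. P450 2K1 (isogroup18515), of a fish subfamily that oxidizes fatty acids and foreign compounds, was at 0, 0 and 0.6402 CPM in *H. flavolineatum*, against 40.6, 79.7 and 219 CPM in *H. macrostomum* (log2 fold change -8.90 ± 0.49, adjusted p = 2.3e-13). Only 2 of 11 *H. flavolineatum* had any count of it, 2 counts in all, against 1622 counts in *H. macrostomum*. P450 26C1 (isogroup5069), which breaks down retinoic acid, was at 0, 2.36 and 102 CPM in *H. flavolineatum*, against 777, 1000.02 and 1600.3 CPM in *H. macrostomum* (log2 fold change -6.42 ± 0.75, adjusted p = 2.0e-07), and fish 11 at 102 CPM stood above the other *H. flavolineatum*. The same fish had the highest vitellogenin of the 11, and leaving it out together with fish 2 kept the call. P450 2J2 (isogroup333), an epoxygenase of fatty acids in mammals, was at 0.432, 4.22 and 19.4 CPM in *H. flavolineatum*, against 138, 185 and 235 CPM in *H. macrostomum* (log2 fold change -5.14 ± 0.45, adjusted p = 1.6e-09).

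Of 14 P450 isogroups tested (of 27), 2 were higher, 8 lower and 4 not past the threshold, and the median log2 fold change was -1.53. P450 4c3 (isogroup78) was at 199.6, 343 and 415 CPM in *H. flavolineatum*, against 85.6, 158 and 330.4 CPM in *H. macrostomum* (log2 fold change 0.93 ± 0.20, adjusted p = 7.9e-04), and CP13A (isogroup3113) was at 5.25, 15.2 and 26.9 CPM in *H. flavolineatum*, against 0, 6.38 and 15.2 CPM in *H. macrostomum* (log2 fold change 1.15 ± 0.33, adjusted p = 0.0087). These were the 2 higher members, and neither passed with the pancreatic level as a covariate (adjusted p = 0.045 and 0.069). The call of isogroup3113 was also lost in 14 of the 22 fits that left out a single fish (adjusted p = 0.012 to 0.019), with *H. carbonarium* in the fit (adjusted p = 0.015), without *H. flavolineatum* fish 2 and 11 (adjusted p = 0.011) and without a filter on low counts (adjusted p = 0.013). A second isogroup named P450 2K1 (isogroup223) was at 16.4, 36.8 and 90.3 CPM in *H. flavolineatum*, against 7.03, 49.6 and 77.2 CPM in *H. macrostomum* and did not pass (log2 fold change -0.23 ± 0.34, adjusted p = 0.63). The 3 isogroups named P450 2J2 were all lower.

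Conjugating enzymes, which attach sugar, sulfate or glutathione to hormones and foreign compounds, went both ways: 9 of 21 tested (of 42) were higher, 7 lower and 5 not past the threshold. UDP-glucuronosyltransferase 2B4 (isogroup473) was at 165, 357 and 502 CPM in *H. flavolineatum*, against 8.79, 34.5 and 80.2 CPM in *H. macrostomum* (log2 fold change 3.10 ± 0.33, adjusted p = 3.6e-08), while UDP-glucuronosyltransferase 2A1 (isogroup93) was at 8.75, 24.9 and 75.97 CPM in *H. flavolineatum* and 64.8, 223 and 328 CPM in *H. macrostomum* (log2 fold change -2.85 ± 0.31, adjusted p = 7.4e-08). A further UDP-glucuronosyltransferase (isogroup9002) was near 0 in *H. flavolineatum*, at 0, 1.54 and 3.38 CPM, against 7.44, 22.6 and 46.4 CPM in *H. macrostomum* (log2 fold change -4.04 ± 0.35, adjusted p = 1.0e-09). Of 6 glutathione S-transferases, Mu 3, rho, theta-1 and kappa 1 were higher, the alpha class one was lower, and theta 1b did not pass. Glutathione S-transferase theta-1 (isogroup1843), the most abundant of them, was at 874, 1765 and 2417 CPM in *H. flavolineatum*, against 669, 909.7 and 1073 CPM in *H. macrostomum* (log2 fold change 0.95 ± 0.16, adjusted p = 4.5e-05), a call lost with all 17 *H. flavolineatum* in the fit (adjusted p = 0.015). A sulfotransferase (isogroup448) was at 496, 727 and 1045 CPM in *H. flavolineatum*, against 205, 282 and 371 CPM in *H. macrostomum* (log2 fold change 1.38 ± 0.15, adjusted p = 6.4e-08).

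The exporters of foreign compounds were lower where they passed. Of 4 tested (of 14), 3 were lower and none was higher, among them ABCG2 (isogroup2545, 24.5 against 36.9 CPM as medians, log2 fold change -0.83 ± 0.20, adjusted p = 0.0018, but 0.011 with library totals) and the multidrug carrier MDR1A (isogroup9910, 6.602 against 13.2 CPM, log2 fold change -1.76 ± 0.37, adjusted p = 5.5e-04). In the list of carboxylesterases and oxidoreductases, 5 of 18 tested (of 25) were higher and 7 lower. Dehydrogenase/reductase 11 (isogroup45553) was at 15.1, 26.3 and 44.8 CPM in *H. flavolineatum*, against 0.341, 1.19 and 2.73 CPM in *H. macrostomum* (log2 fold change 4.39 ± 0.28, adjusted p = 4.6e-12), and dehydrogenase/reductase 13 (isogroup383) was at 3.502, 54.2 and 103 CPM in *H. flavolineatum* and 189, 283 and 448 CPM in *H. macrostomum* (log2 fold change -2.40 ± 0.28, adjusted p = 1.8e-07). Both sets of levels were without overlap.

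Carriers of blood lipids were mostly lower in *H. flavolineatum*, 8 of 12 tested (of 26), with 2 higher and 2 not past the threshold (median log2 fold change -0.88, and 2 higher and 4 lower with the pancreatic covariate). Apolipoprotein A-I (isogroup2202), the core of high-density lipoprotein and among the most abundant transcripts of these livers, was at 16272, 22652 and 31336 CPM in *H. flavolineatum*, against 23554, 34569 and 47363 CPM in *H. macrostomum* (log2 fold change -0.57 ± 0.14, adjusted p = 0.0027). The difference was small and the species overlapped, and it did not pass with the pancreatic covariate (adjusted p = 0.017), with library totals (adjusted p = 0.012) or without a filter on low counts (adjusted p = 0.021). Cholesteryl ester transfer protein (isogroup1454), which moves cholesterol esters between lipoproteins, was at 0, 2.35 and 5.66 CPM in *H. flavolineatum*, against 7.204, 14.7 and 28.5 CPM in *H. macrostomum* (log2 fold change -2.76 ± 0.35, adjusted p = 8.7e-07). Serum paraoxonase 2 (isogroup405), a lactonase and esterase, was at 27.2, 35.2 and 61.3 CPM in *H. flavolineatum*, against 86.7, 124 and 173 CPM in *H. macrostomum* (log2 fold change -1.68 ± 0.17, adjusted p = 1.4e-08).

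Apolipoprotein B-100, the backbone of low-density lipoprotein, had 2 tested isogroups that split. The larger (isogroup701) was at 63.5, 100.4 and 134 CPM in *H. flavolineatum*, against 4.75, 19.6 and 46.8 CPM in *H. macrostomum* (log2 fold change 2.30 ± 0.26, adjusted p = 1.5e-07), and the other (isogroup4685) was at 6.57, 14.1 and 22.8 CPM in *H. flavolineatum* and 10.6, 29.2 and 56.99 CPM in *H. macrostomum* (log2 fold change -1.05 ± 0.26, adjusted p = 0.0026). All isogroups of the name, tested or not, together gave 123 ± 22.2 CPM in *H. flavolineatum*, against 53.7 ± 25.3 CPM in *H. macrostomum* (SD, n = 11 each; log2 fold change 1.19 ± 0.22, adjusted p = 1.8e-04), so that the sum was higher in *H. flavolineatum*. Apolipoprotein C-I (isogroup46198), a small exchangeable apolipoprotein, was at 1938, 2344 and 3771 CPM in *H. flavolineatum*, against 2087, 4209.6 and 5674 CPM in *H. macrostomum* (log2 fold change -0.75 ± 0.15, adjusted p = 3.2e-04).

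Fatty acid activation and oxidation had the reverse balance, with 8 higher, 4 lower and 7 not past the threshold of 19 tested (of 35), and a median log2 fold change of 0.72. Acyl-CoA thioesterase 4 (isogroup157), a peroxisomal enzyme in mammals that frees fatty acids from coenzyme A, was at 275, 418 and 519.7 CPM in *H. flavolineatum*, against 2.73, 12.7 and 24.4 CPM in *H. macrostomum* (log2 fold change 5.01 ± 0.31, adjusted p = 1.5e-12). The bifunctional hydratase and dehydrogenase of peroxisomal beta-oxidation (isogroup2980) was at 133, 214 and 273 CPM in *H. flavolineatum*, against 38.9, 58.3 and 90.7 CPM in *H. macrostomum* (log2 fold change 1.73 ± 0.19, adjusted p = 5.7e-08). Peroxisomal acyl-CoA oxidase 3 (isogroup120), which starts beta-oxidation of branched chains, was in contrast nearly absent from *H. flavolineatum* counts, at 0, 0.939 and 4.22 CPM in *H. flavolineatum*, against 18.6, 27.3 and 42.2 CPM in *H. macrostomum* (log2 fold change -4.43 ± 0.34, adjusted p = 1.5e-10). None of these 3 overlapped between the species.

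The enzyme 4-trimethylaminobutyraldehyde dehydrogenase (isogroup572), which acts in the synthesis of carnitine, the carrier of fatty acids into mitochondria, was at 6.75, 16.1 and 31.4 CPM in *H. flavolineatum*, against 75.4, 147 and 252 CPM in *H. macrostomum* (log2 fold change -2.86 ± 0.25, adjusted p = 1.4e-09). Solute carrier family 22 member 5 (isogroup659), the carnitine transporter of mammals, was at 0, 0 and 1.75 CPM in *H. flavolineatum*, against 10.5, 24.8 and 46.2 CPM in *H. macrostomum* (log2 fold change -7.47 ± 0.48, adjusted p = 3.4e-12). Solute carrier family 22 member 16 (isogroup32065), also a carnitine transporter in humans, was higher (39.7 against 8.87 CPM as medians, log2 fold change 1.79 ± 0.26, adjusted p = 6.7e-06). The fatty acid transporter and very long chain acyl-CoA synthetase SLC27A2 (isogroup4035) was at 0, 0 and 5.06 CPM in *H. flavolineatum*, against 7.65, 30.3 and 76.7 CPM in *H. macrostomum* (log2 fold change -5.07 ± 0.60, adjusted p = 2.5e-07), with no count in most *H. flavolineatum*. Isogroups named very long-chain acyl-CoA synthetase, 2 of them tested, were more abundant and ran the other way. Their sum was at 838 ± 293 CPM in *H. flavolineatum*, against 246 ± 101 CPM in *H. macrostomum* (SD, n = 11 each; log2 fold change 1.77 ± 0.24, adjusted p = 3.0e-06).

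Enzymes of lipid synthesis were called in both directions, 3 higher and 6 lower of 10 tested (of 35), and 2 higher and 4 lower with the pancreatic covariate. CIDE-B (isogroup957), a lipid droplet protein needed for secretion of large lipoproteins in mice, was at 164, 254 and 373 CPM in *H. flavolineatum*, against 77.8, 124 and 154 CPM in *H. macrostomum* (log2 fold change 1.14 ± 0.15, adjusted p = 1.7e-06). An elongase of very long chain fatty acids (isogroup628) was at 13.4, 27.9 and 41.7 CPM in *H. flavolineatum*, against 46.2, 73.2 and 213 CPM in *H. macrostomum* (log2 fold change -1.78 ± 0.27, adjusted p = 1.2e-05). Lysophosphatidylcholine acyltransferase 2 (isogroup12668), which rebuilds membrane phospholipid, was higher without overlap (31.5 against 4.43 CPM as medians, log2 fold change 2.59 ± 0.28, adjusted p = 5.9e-08). The B form of choline-phosphate cytidylyl transferase (isogroup14084), which controls the rate of phosphatidylcholine synthesis, was lower (3.502 against 24.8 CPM, log2 fold change -2.46 ± 0.39, adjusted p = 2.4e-05).

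Retinoid and steroid enzymes were lower in 8 and higher in 3 of 15 tested isogroups (of 26), and 2 higher and 5 lower with the pancreatic covariate. Prostaglandin D synthase (isogroup3764), in mammals a lipocalin that binds retinoids, and an abundant transcript here, was at 1266, 2323 and 4029.7 CPM in *H. flavolineatum*, against 5516, 6962 and 8424 CPM in *H. macrostomum* (log2 fold change -1.56 ± 0.18, adjusted p = 2.4e-07), with no overlap. Retinol dehydrogenase 3 (isogroup2260) was lower (144 against 335 CPM, log2 fold change -1.15 ± 0.16, adjusted p = 4.2e-06) and RDH2 (isogroup562) higher (133 against 42.8 CPM, log2 fold change 1.60 ± 0.23, adjusted p = 6.9e-06). Retinol-binding protein 4 (RBP4, isogroup1738), the blood carrier of vitamin A, was at 105, 140.3 and 251 CPM in *H. flavolineatum*, against 224, 824 and 1919 CPM in *H. macrostomum* (log2 fold change -2.35 ± 0.28, adjusted p = 2.2e-07), and the lowest *H. macrostomum* overlapped the *H. flavolineatum* range.

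**Figure D3:**
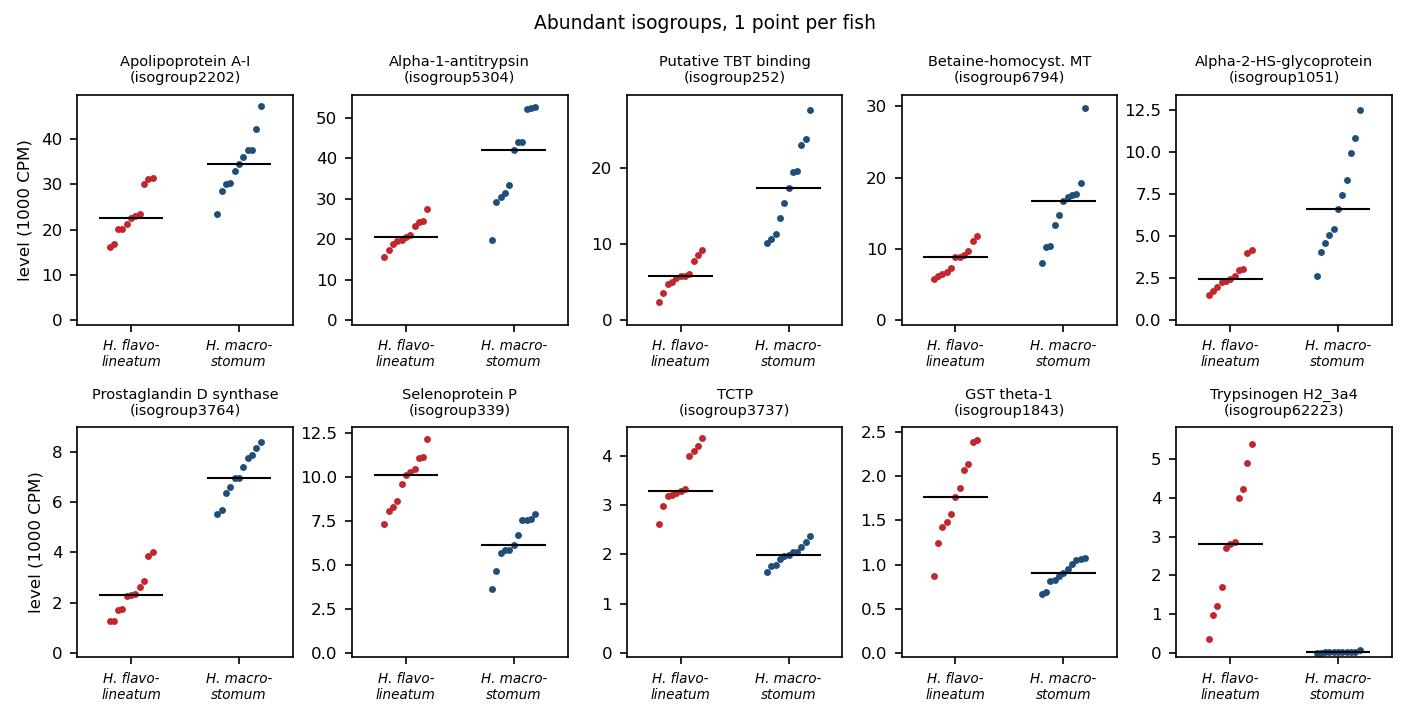
Levels of 10 abundant isogroups in units of 1000 CPM on a linear vertical axis from 0, 1 point per fish in order of level, with *H. flavolineatum* in red on the left and *H. macrostomum* in blue on the right, and a black line at the median. In 6 panels there is a lower *H. flavolineatum* median, and selenoprotein P, TCTP, glutathione S-transferase theta-1 and trypsinogen a higher one, with no overlap for the putative TBT binding protein, prostaglandin D synthase, TCTP and trypsinogen.

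Several of the most abundant secreted proteins were lower in *H. flavolineatum*, as the plot of abundant isogroups shows. Alpha-1-antitrypsin (isogroup5304), an inhibitor of serine proteases, was at 15506, 20626 and 27446 CPM in *H. flavolineatum*, against 19787, 42022 and 52718 CPM in *H. macrostomum* (log2 fold change -0.90 ± 0.16, adjusted p = 6.8e-05). The putative TBT binding protein (isogroup252), of a family that binds tributyltin in the blood of Japanese flounder, was at 2408, 5749.8 and 9258 CPM in *H. flavolineatum*, against 10214, 17344 and 27649 CPM in *H. macrostomum* (log2 fold change -1.58 ± 0.22, adjusted p = 2.8e-06), with the ranges apart. Alpha-2-HS-glycoprotein (isogroup1051), a mineral-binding plasma protein, was at 1483, 2437 and 4153 CPM in *H. flavolineatum*, against 2621, 6594 and 12533 CPM in *H. macrostomum* (log2 fold change -1.42 ± 0.24, adjusted p = 4.2e-05). Selenoprotein P (isogroup339), which carries selenium from the liver, ran the other way at 7313, 10120.3 and 12140.5 CPM in *H. flavolineatum*, against 3651, 6140.2 and 7892 CPM in *H. macrostomum* (log2 fold change 0.63 ± 0.14, adjusted p = 7.9e-04). It did not pass with the pancreatic covariate (adjusted p = 0.011) or without a filter on low counts (adjusted p = 0.060).

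Protease inhibitors were lower in 12 of 20 tested isogroups (of 26), higher in 4, and had a median log2 fold change of -0.86. A serine proteinase inhibitor (isogroup56848) was at 0, 2.36 and 6.78 CPM in *H. flavolineatum*, against 35.1, 109 and 167 CPM in *H. macrostomum* (log2 fold change -5.49 ± 0.36, adjusted p = 6.8e-12). Alpha-2-macroglobulin, which traps proteases of any class, was split over isogroups: isogroup8233 was at 4.82, 27.8 and 52.5 CPM in *H. flavolineatum*, against 117, 349.6 and 579.8 CPM in *H. macrostomum* (log2 fold change -3.63 ± 0.35, adjusted p = 7.4e-09), and the more abundant isogroup8563 was at 654, 1056 and 2052 CPM in *H. flavolineatum* and 476, 636 and 1102 CPM in *H. macrostomum* (log2 fold change 0.81 ± 0.19, adjusted p = 0.0017). The call of isogroup8563 was lost with all 17 *H. flavolineatum* in the fit (adjusted p = 0.1) and with the pancreatic covariate (adjusted p = 0.011). Summed over all isogroups of the name, 5 of them tested, alpha-2-macroglobulin was at 1290.2 ± 449.8 CPM in *H. flavolineatum*, against 1116 ± 292 CPM in *H. macrostomum* (SD, n = 11 each; log2 fold change 0.21 ± 0.19, adjusted p = 0.41) and did not pass.

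Complement, the cascade that marks and lyses microbes, had 7 higher, 10 lower and 13 isogroups not past the threshold of 30 tested (of 66), and 3 higher and 10 lower with the pancreatic covariate. The share called, 56.7%, was near the 53.5% of all tested isogroups with a name. The most abundant isogroup of C3, the central component (isogroup6800), was at 5949, 8302 and 10964 CPM in *H. flavolineatum*, against 8852, 12074 and 15908 CPM in *H. macrostomum* (log2 fold change -0.49 ± 0.13, adjusted p = 0.0043), a small and overlapping difference. Its call was lost with the pancreatic covariate (adjusted p = 0.011), with library totals (adjusted p = 0.021) and with upper-quartile scaling (adjusted p = 0.016). It was also lost without *H. flavolineatum* fish 8 and 17 (adjusted p = 0.016), without a filter on low counts (adjusted p = 0.057) and with the fish number as a replicate block (adjusted p = 0.068). Without *H. flavolineatum* fish 7 the call was lost too (adjusted p = 0.011), and it was kept in the other 21 fits without a single fish. A minor C3 isogroup (isogroup5994) was at 78.5, 112 and 187 CPM in *H. flavolineatum*, against 10.6, 17.2 and 24.1 CPM in *H. macrostomum* (log2 fold change 2.84 ± 0.20, adjusted p = 3.0e-11), and another (isogroup7824) was at 0, 3.95 and 11.5 CPM in *H. flavolineatum* and 19.7, 37.7 and 66.5 CPM in *H. macrostomum* (log2 fold change -2.73 ± 0.33, adjusted p = 3.9e-07). The isogroups named complement component C3, 6 of them tested, summed to 9072 ± 1686 CPM in *H. flavolineatum*, against 12916 ± 2279 CPM in *H. macrostomum* (SD, n = 11 each; log2 fold change -0.51 ± 0.13, adjusted p = 0.0036). Under the separate name complement C3, 5 isogroups were tested, 2 higher and 0 lower. Their name summed to 841 ± 296 CPM in *H. flavolineatum*, against 955 ± 239 CPM in *H. macrostomum* (SD, n = 11 each). That sum did not pass (log2 fold change -0.18 ± 0.19, adjusted p = 0.48). Complement factor H, a brake on the cascade, summed over its isogroups, 4 of them tested, to 1569 ± 256 CPM in *H. flavolineatum*, against 2658 ± 484 CPM in *H. macrostomum* (SD, n = 11 each; log2 fold change -0.76 ± 0.13, adjusted p = 6.8e-05), and those sums did not overlap. Complement factor H-related protein 1 (isogroup20398) was lower as well (3.298 against 20.3 CPM, log2 fold change -3.06 ± 0.34, adjusted p = 7.4e-08).

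Clotting factors were lower in 6 of 14 tested isogroups (of 20) and higher in 1, with a median log2 fold change of -0.79, and 0 higher and 3 lower with the pancreatic covariate. Of the 5 isogroups of coagulation factor X, which turns prothrombin into thrombin, 3 were lower, each without overlap, and 2 did not pass. The most abundant (isogroup1507) was at 446, 516 and 578 CPM in *H. flavolineatum*, against 769, 1284 and 1553 CPM in *H. macrostomum* (log2 fold change -1.27 ± 0.13, adjusted p = 2.7e-08). Vitamin K-dependent protein S (isogroup335), an anticoagulant cofactor, was at 182, 307 and 413 CPM in *H. flavolineatum*, against 50.4, 94.7 and 312 CPM in *H. macrostomum* (log2 fold change 1.18 ± 0.26, adjusted p = 0.0012) and was the exception, though not with the pancreatic covariate (adjusted p = 0.028). Of the plasma carriers, 5 of 22 tested (of 25) were higher and 6 lower, and 0 higher and 5 lower with the pancreatic covariate. Fetuin-B (isogroup1014), an inhibitor of the egg-hardening protease ovastacin in mice, was at 136, 178 and 209.7 CPM in *H. flavolineatum*, against 272, 476 and 579.8 CPM in *H. macrostomum* (log2 fold change -1.36 ± 0.15, adjusted p = 4.6e-08).

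Amino acid breakdown leaned lower in *H. flavolineatum*, with 11 lower, 5 higher and 9 not past the threshold of 25 tested (of 42), and 1 higher and 5 lower with the pancreatic covariate. Betaine homocysteine methyltransferase (isogroup6794), which remakes methionine from homocysteine and is one of the most abundant liver transcripts here, was at 5822, 8825 and 11816 CPM in *H. flavolineatum*, against 8067, 16755 and 29702 CPM in *H. macrostomum* (log2 fold change -0.93 ± 0.19, adjusted p = 4.2e-04). An asparaginase homolog (isogroup417) was at 1.69, 4.32 and 9.29 CPM in *H. flavolineatum*, against 24.2, 60.8 and 124 CPM in *H. macrostomum* (log2 fold change -3.83 ± 0.28, adjusted p = 4.8e-11) with the ranges far apart. Alanine aminotransferase 2 (isogroup28166), which links alanine to pyruvate, was at 0.4801, 3.38 and 10.2 CPM in *H. flavolineatum*, against 6.91, 26.03 and 48.1 CPM in *H. macrostomum* (log2 fold change -2.76 ± 0.43, adjusted p = 1.5e-05).

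Purine and pyrimidine enzymes were lower in 8 of 16 tested isogroups (of 37) and higher in 1 (1 higher and 4 lower with the pancreatic covariate). The higher one was beta-ureidopropionase (isogroup3987), the last enzyme of pyrimidine breakdown, at 49.3, 101 and 207 CPM in *H. flavolineatum*, against 1.41, 7.45 and 29.6 CPM in *H. macrostomum* (log2 fold change 3.55 ± 0.36, adjusted p = 1.6e-08). A second isogroup of the same enzyme (isogroup21) did not pass (log2 fold change -0.64 ± 0.21, adjusted p = 0.021). Uridine-cytidine kinase 1 (isogroup617), of pyrimidine salvage, was lower (5.25 against 20.2 CPM, log2 fold change -1.83 ± 0.29, adjusted p = 2.6e-05).

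Carbohydrate enzymes were higher in 8, lower in 4 and not past the threshold in 10 of 22 tested isogroups (of 45). Trans-aconitate 3-methyltransferase (isogroup6426) was at 78.8, 153 and 232 CPM in *H. flavolineatum*, against 1.24, 11.96 and 26.4 CPM in *H. macrostomum* (log2 fold change 3.74 ± 0.37, adjusted p = 1.2e-08). Mitochondrial malate dehydrogenase (isogroup1433), of the citric acid cycle, was at 21.8, 35.01 and 49.8 CPM in *H. flavolineatum*, against 59.2, 133 and 150.2 CPM in *H. macrostomum* (log2 fold change -1.78 ± 0.20, adjusted p = 6.9e-08), and aldose reductase (isogroup1035), which makes sorbitol from glucose, was at 25.9, 51.9 and 66.6 CPM in *H. flavolineatum* and 131, 169 and 192 CPM in *H. macrostomum* (log2 fold change -1.75 ± 0.17, adjusted p = 1.4e-08). All 3 were without overlap. Fructose-bisphosphate aldolase B (isogroup8498), the abundant liver aldolase, was at 636, 3118 and 4607 CPM in *H. flavolineatum*, against 1144, 4131 and 5609.6 CPM in *H. macrostomum* and did not pass (log2 fold change -0.38 ± 0.31, adjusted p = 0.35).

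Of 14 antioxidant and selenium proteins tested (of 21), 2 were higher and 3 lower. The share called was 35.7%, against 21.3% of all tested isogroups and 53.5% of those with a name. Peroxiredoxin-6 (isogroup4413), which reduces lipid peroxides, was at 934, 1379.8 and 1779.6 CPM in *H. flavolineatum*, against 376, 691 and 1077 CPM in *H. macrostomum* (log2 fold change 0.91 ± 0.16, adjusted p = 1.1e-04). A glutathione peroxidase (isogroup1565) was at 12.05, 22.9 and 29.7 CPM in *H. flavolineatum*, against 45.9, 58.3 and 105 CPM in *H. macrostomum* (log2 fold change -1.56 ± 0.19, adjusted p = 3.9e-07), with every *H. flavolineatum* below every *H. macrostomum*.

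Subunits of the respiratory chain encoded in mitochondrial DNA were split by isogroup. ATP synthase subunit a, the proton channel of the enzyme, had an isogroup at 1282, 1959 and 3572 CPM in *H. flavolineatum*, against 2.05, 4.78 and 13.4 CPM in *H. macrostomum* (isogroup43821, log2 fold change 8.41 ± 0.33, adjusted p = 4.8e-16). Its other isogroup was at 16.98, 37.3 and 61.6 CPM in *H. flavolineatum* and 565, 1583 and 2902 CPM in *H. macrostomum* (isogroup4021, log2 fold change -5.50 ± 0.30, adjusted p = 1.5e-13). Nearly all ATP synthase subunit a counts of each species were thus in a different isogroup. Added together, all isogroups of the name, tested or not, came to 2031 ± 658 CPM in *H. flavolineatum*, against 1785 ± 654 CPM in *H. macrostomum* (SD, n = 11 each; log2 fold change 0.19 ± 0.21, adjusted p = 0.53), with no call.

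Cytochrome c oxidase subunit 3 (isogroup74190) was at 2589.6, 5515 and 8048 CPM in *H. flavolineatum*, against 399.7, 1017 and 1693 CPM in *H. macrostomum* (log2 fold change 2.44 ± 0.24, adjusted p = 1.0e-08), with no overlap. Both tested isogroups of subunit 2 were counted almost only in *H. flavolineatum*, isogroup38883 at 6.602, 18.6 and 38.2 CPM in *H. flavolineatum*, against 0, 0 and 1.096 CPM in *H. macrostomum*, and isogroup39741 at 9.29, 20.1 and 35.6 CPM in *H. flavolineatum* and at 0 CPM in all *H. macrostomum*. Whether *H. macrostomum* reads of this subunit were counted in isogroups without a name at hand was not tested. NADH-ubiquinone oxidoreductase chain 2 (isogroup13552) was lower (20.3 against 51.02 CPM, log2 fold change -1.33 ± 0.24, adjusted p = 9.2e-05), and of 10 tested isogroups of the list (of 12) 4 were higher and 4 lower. Nuclear subunits were not past the threshold in 18 of 26 tested (of 31), with 3 higher and 5 lower. The share called was 30.8%, against 21.3% of all tested isogroups and 53.5% of those with a name. The balance turned to 5 higher and 3 lower with library totals, and it was 1 higher and 4 lower with the pancreatic covariate. Ferredoxin 1 (isogroup823), which passes electrons to mitochondrial P450 enzymes, was at 4.75, 8.96 and 14.1 CPM in *H. flavolineatum*, against 12.8, 64.6 and 92.9 CPM in *H. macrostomum* (log2 fold change -2.84 ± 0.28, adjusted p = 1.1e-08).

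Ribosomal proteins and translation factors were not past the threshold in 24 of 33 tested (of 63), with 1 higher and 8 lower (1 higher and 4 lower with the pancreatic covariate) and a median log2 fold change of -0.44. The share called was 27.3%, against 21.3% of all tested isogroups and 53.5% of those with a name. The acidic ribosomal protein P2 (isogroup20825) was at 309, 424 and 694 CPM in *H. flavolineatum*, against 697, 845 and 1499.8 CPM in *H. macrostomum* (log2 fold change -0.98 ± 0.17, adjusted p = 9.2e-05), and subunit 1 of initiation factor 2 (isogroup3602), whose phosphorylation slows translation under stress, was at 16.96, 25.98 and 33.7 CPM in *H. flavolineatum* and 41.6, 61.4 and 105 CPM in *H. macrostomum* (log2 fold change -1.39 ± 0.18, adjusted p = 1.1e-06). Both were apart in all fish. An initiation factor 4E-binding protein (isogroup2514), a brake on cap-dependent translation, was at 50.8, 95.4 and 192 CPM in *H. flavolineatum*, against 205, 324 and 497 CPM in *H. macrostomum* (log2 fold change -1.74 ± 0.21, adjusted p = 4.3e-07). A second such isogroup (isogroup126) was higher (73.7 against 44.02 CPM, log2 fold change 0.91 ± 0.20, adjusted p = 7.8e-04). TCTP (isogroup3737), the translationally controlled tumor protein and an abundant transcript, was at 2618, 3289.6 and 4370.4 CPM in *H. flavolineatum*, against 1637, 1998 and 2383 CPM in *H. macrostomum* (log2 fold change 0.81 ± 0.12, adjusted p = 5.2e-06), without overlap.

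Lectins, which bind sugars on microbes, held large changes in both directions. Serum lectin isoform 3 (isogroup43018) was at 334, 786 and 1693 CPM in *H. flavolineatum*, against 0.638, 1.76 and 2.81 CPM in *H. macrostomum* (log2 fold change 9.04 ± 0.37, adjusted p = 6.1e-16), and intelectin-1a (isogroup48155) was at 284, 457 and 879 CPM in *H. flavolineatum* and 0, 2.19 and 5.94 CPM in *H. macrostomum* (log2 fold change 7.58 ± 0.35, adjusted p = 5.2e-15). A C-type lectin domain protein (isogroup37168) was at 0, 0.863 and 3.21 CPM in *H. flavolineatum*, against 13.3, 89.3 and 445 CPM in *H. macrostomum* (log2 fold change -7.21 ± 0.67, adjusted p = 4.6e-09), and isogroup1539, a lactose-binding lectin l-2, was low in *H. flavolineatum* too, at 0, 0 and 6.57 CPM, against 7.17, 69.1 and 236 CPM in *H. macrostomum* (log2 fold change -6.19 ± 0.67, adjusted p = 5.8e-08). None of these 4 overlapped. Pentaxin (isogroup33149), of the family of C-reactive protein, was at 834, 2674 and 5815 CPM in *H. flavolineatum*, against 12.6, 198 and 1716 CPM in *H. macrostomum* (log2 fold change 2.50 ± 0.54, adjusted p = 7.9e-04), with wide spread in both species. Of 14 tested isogroups of the list (of 33), 6 were higher, 5 lower and 3 not past the threshold.

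Hepcidins, peptides that limit the release of iron into blood and in fish also kill bacteria, were represented by 4 tested isogroups. One (isogroup13090) was at 140.1, 239 and 414 CPM in *H. flavolineatum*, against 5.46, 16.2 and 46.04 CPM in *H. macrostomum* (log2 fold change 3.79 ± 0.29, adjusted p = 8.2e-11), another (isogroup12503) at 6.57, 18.6 and 51.9 CPM in *H. flavolineatum* and 229, 437 and 879 CPM in *H. macrostomum* (log2 fold change -4.37 ± 0.33, adjusted p = 7.0e-11), and both were without overlap. The most abundant (isogroup5033) varied widely from fish to fish, at 153, 627 and 5857 CPM in *H. flavolineatum*, against 454, 5656 and 13946 CPM in *H. macrostomum* (log2 fold change -2.19 ± 0.56, adjusted p = 0.0039), and its call was lost without the shallow *H. flavolineatum* fish 8 and 17 (adjusted p = 0.012). The fourth (isogroup424) did not pass (log2 fold change 0.59 ± 0.26, adjusted p = 0.078). All isogroups named hepcidin, 4 of them tested, together gave 2617 ± 1983 CPM in *H. flavolineatum*, against 7556 ± 3797 CPM in *H. macrostomum* (SD, n = 11 each; log2 fold change -1.53 ± 0.36, adjusted p = 0.0017). Lysozyme C, an enzyme that breaks down walls of bacteria (isogroup3721), was at 404, 1083 and 2053 CPM in *H. flavolineatum*, against 1850.2, 2966 and 4076 CPM in *H. macrostomum* (log2 fold change -1.35 ± 0.22, adjusted p = 2.4e-05).

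Chemokines were called 2 each way of 7 tested (of 31). Interleukin-8 protein (isogroup1679), which attracts neutrophils, was at 28.2, 52.2 and 129 CPM in *H. flavolineatum*, against 194, 240.1 and 335 CPM in *H. macrostomum* (log2 fold change -1.95 ± 0.25, adjusted p = 8.0e-07), and a second isogroup of the name (isogroup9888) was at 6.18, 16.01 and 56.5 CPM in *H. flavolineatum* and 0.633, 2.55 and 5.48 CPM in *H. macrostomum* (log2 fold change 2.75 ± 0.39, adjusted p = 3.8e-06). The sum over all isogroups of the name, tested or not, was lower in every *H. flavolineatum* than in any *H. macrostomum*, at 85.00 ± 43.4 CPM in *H. flavolineatum*, against 258 ± 46.5 CPM in *H. macrostomum* (SD, n = 11 each; log2 fold change -1.61 ± 0.24, adjusted p = 8.8e-06). C-C motif chemokine 25, in mammals a signal to migrating T cells (isogroup1669), was at 0, 0 and 3.38 CPM in *H. flavolineatum*, against 12.4, 22.4 and 36.2 CPM in *H. macrostomum* (log2 fold change -5.16 ± 0.45, adjusted p = 1.4e-09).

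Of the other immune groups, interferon-response isogroups were 3 higher and 1 lower of 6 tested (of 71). Tripartite motif protein 39 (isogroup12695) was at 72.5, 89.98 and 150.2 CPM in *H. flavolineatum*, against 9.61, 20.9 and 52.2 CPM in *H. macrostomum* (log2 fold change 1.91 ± 0.25, adjusted p = 1.7e-06), and the lysosomal thiol reductase GILT (isogroup3130), which unfolds antigens, was at 30.7, 42.2 and 79.01 CPM in *H. flavolineatum* and 8.87, 16.9 and 23.02 CPM in *H. macrostomum* (log2 fold change 1.56 ± 0.21, adjusted p = 2.9e-06). Tripartite motif protein 35 (isogroup9759) was lower (0 against 17.6 CPM, log2 fold change -4.94 ± 0.53, adjusted p = 5.1e-08). All 3 tested members of the inflammasome list (of 26) were lower (1 with the pancreatic covariate), including the adaptor ASC (apoptosis-associated speck protein, isogroup5717, 4.71 against 12.7 CPM, log2 fold change -1.60 ± 0.36, adjusted p = 0.0011), whose call was lost with the pancreatic covariate (adjusted p = 0.03). CD48 (isogroup534), a surface protein of leukocytes, was at 2.41, 10.97 and 17.5 CPM in *H. flavolineatum*, against 28.7, 55.1 and 73.9 CPM in *H. macrostomum* (log2 fold change -2.35 ± 0.30, adjusted p = 8.0e-07). A membrane-spanning 4-domains protein (isogroup1162) was higher (53.1 against 6.38 CPM, log2 fold change 2.77 ± 0.26, adjusted p = 5.9e-09). The sum over all isogroups of its name, 5 of them tested, did not pass (188 ± 25.8 against 142 ± 15.8 CPM, SD, n = 11 each; log2 fold change 0.41 ± 0.12, adjusted p = 0.014). In the antigen presentation and lymphocyte list 3 of 15 tested (of 46) were higher, 3 lower and 9 not past the threshold, and 1 higher and 1 lower with the pancreatic covariate. GTPases of the IMAP family, regulators of lymphocyte survival in mammals, were higher in 2 and lower in 1 of 5 tested isogroups (of 20), and 1 higher and 0 lower with the pancreatic covariate. A minor IMAP family member 4 isogroup (isogroup6011) was at 9.29, 19.3 and 36.5 CPM in *H. flavolineatum*, against 0, 0.586 and 3.19 CPM in *H. macrostomum* (log2 fold change 4.56 ± 0.43, adjusted p = 5.5e-09), without overlap. Summed over all isogroups of that name, 4 of them tested, IMAP family member 4 was at 345 ± 146 CPM in *H. flavolineatum*, against 324 ± 59.9 CPM in *H. macrostomum* (SD, n = 11 each; log2 fold change 0.09 ± 0.20, adjusted p = 0.76), and did not pass.

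**Figure D4:**
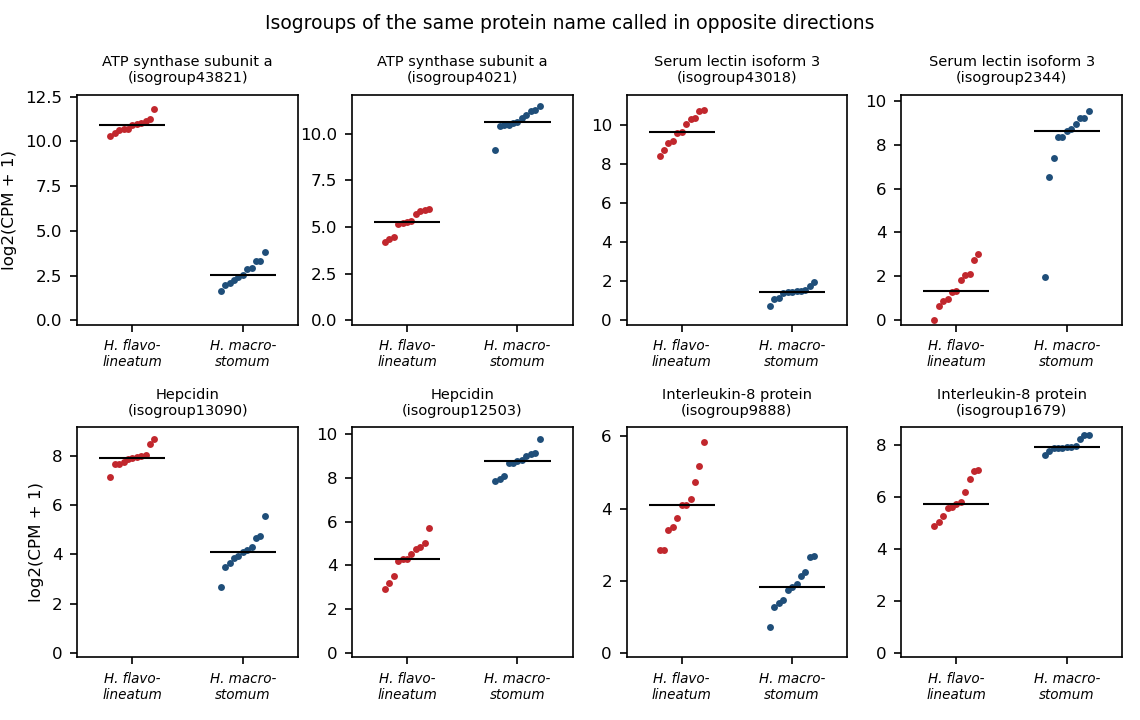
Levels of 4 pairs of isogroups that carry the same protein name and were called in opposite directions, as log2(CPM + 1) on the vertical axis, 1 point per fish in order of level, with *H. flavolineatum* in red on the left and *H. macrostomum* in blue on the right, and a black line at the median. In each pair 1 isogroup is higher in *H. flavolineatum* and the other lower, and only serum lectin isogroup2344 overlaps between the species, through 1 *H. macrostomum* at 2.93 CPM.

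Opposite calls under 1 protein name recurred. Of 71 informative names with 2 or more tested isogroups, 66 had a call, 17 had calls in both directions, 10 had 2 or more higher and none lower, and 10 had 2 or more lower and none higher. Counts were also summed by name, for all informative names, and refitted. For the 17 names with calls both ways, 10 sums passed the test while 7 did not. Each sum took in all isogroups of a name, also those that did not pass the filter on low counts. Serum lectin isoform 3, with isogroup2344 at 0, 1.54 and 7.004 CPM in *H. flavolineatum*, against 2.93, 395 and 729.5 CPM in *H. macrostomum* (log2 fold change -7.31 ± 0.65, adjusted p = 1.6e-09), was among the 7, its sum at 992 ± 478 CPM in *H. flavolineatum*, against 379 ± 226 CPM in *H. macrostomum* (SD, n = 11 each; log2 fold change 1.39 ± 0.43, adjusted p = 0.014). Intelectin-1a passed, at 560.2 ± 174 CPM in *H. flavolineatum*, against 329 ± 143 CPM in *H. macrostomum* (SD, n = 11 each; log2 fold change 0.77 ± 0.22, adjusted p = 0.009). Reads of 1 gene that match a different isogroup in each species, and gene copies expressed at different levels, cannot be told apart from these counts. The plot of same-named pairs shows 4 of the 17 names. Under others of the 17 the species overlapped, as in alpha-1-antitrypsin isogroup5304 and isogroup3109 and in alpha-2-macroglobulin isogroup8563.

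Some isogroups had counts in 1 species only. At a minimum of 100 counts over the 11 fish of the other species, 20 isogroups had no count in *H. flavolineatum* and 5 had none in *H. macrostomum*. A further 52 had 1 to 3 counts over all *H. flavolineatum*, and 22 had 1 to 3 over all *H. macrostomum*. Of the 20, 13 were counted in all 11 *H. macrostomum*, 7 had a name, and 2 had their counts from only 1 or 2 fish. Cytochrome P450 2F5 (isogroup793) had 0 counts in *H. flavolineatum* and 394 in *H. macrostomum*, at least 112-fold lower, with 3 counts over the group as the floor. Aquaporin-8 (isogroup3523), a water and ammonia channel, had 0 counts in *H. flavolineatum* and 117 in *H. macrostomum* (at least 33.3-fold lower). Nocturnin (isogroup4286), a phosphatase with a daily rhythm in mouse liver, had 0 counts in *H. flavolineatum* and 121 in 8 of the 11 *H. macrostomum* (at least 34.5-fold lower). In the other direction, cytochrome c oxidase subunit 2 (isogroup39741) had 366 counts in *H. flavolineatum* and 0 in *H. macrostomum* (at least 143-fold higher), and an alpha-amylase (isogroup41615) had 101 in *H. flavolineatum* and 0 in *H. macrostomum* (at least 39.4-fold higher). These folds are of single isogroups, and whether *H. macrostomum* reads of the same genes were counted in other isogroups was not tested. The floors cover counting error only.

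Both tested clock-related transcription factors were lower, with overlap between the species and a large spread between fish. D site of albumin promoter binding protein (isogroup366), an output factor of the circadian clock, was at 1.92, 7.77 and 56.03 CPM in *H. flavolineatum*, against 5.27, 127 and 214 CPM in *H. macrostomum* (log2 fold change -2.95 ± 0.63, adjusted p = 6.7e-04). Hepatic leukemia factor (isogroup18), of the same family, was at 1.28, 6.43 and 68.3 CPM in *H. flavolineatum*, against 1.76, 89.7 and 253 CPM in *H. macrostomum* (log2 fold change -2.92 ± 0.70, adjusted p = 0.0022), and was not called with the pancreatic covariate (adjusted p = 0.016). Summed over the 10 isogroups of the list, the highest *H. flavolineatum* were fish 17 and 16, at 142 and 99.96 CPM, and the other 9 were at 32.4 CPM or less. Among *H. macrostomum*, fish 11, 10, 1 and 2 were at 35.7, 38.3, 87.6 and 149 CPM, and the other 7 were at 358 CPM or more. Fish 6, the lowest of these 7, had both tested factors at 9.21 CPM, so that most of its sum came from other isogroups of the list. The hour at which each fish was taken was not in the labels, so that its part in these levels was not tested.

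Hormone-related isogroups gave 2 lower and 3 not past the threshold of 5 tested (of 15). Iodotyrosine dehalogenase 1 (isogroup2540), which recovers iodide from thyroid hormone precursors, was at 20.1, 29.6 and 69.2 CPM in *H. flavolineatum*, against 71.7, 94.97 and 122 CPM in *H. macrostomum* (log2 fold change -1.37 ± 0.19, adjusted p = 3.2e-06). Insulin-like growth factor binding protein 4 (isogroup13) was lower (141 against 295 CPM, log2 fold change -1.09 ± 0.32, adjusted p = 0.0093), a call lost with the pancreatic covariate (adjusted p = 0.084) and in 16 of the 22 fits without a single fish (adjusted p = 0.010 to 0.021). Insulin-like growth factor I (isogroup8), the liver growth hormone mediator, was at 410.1, 476 and 546 CPM in *H. flavolineatum*, against 463, 604 and 919 CPM in *H. macrostomum* and did not pass (log2 fold change -0.39 ± 0.13, adjusted p = 0.024).

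Membrane carriers were lower in 7 and higher in 3 of 16 tested isogroups (of 42). Zinc transporter ZIP9 (isogroup47529) was at 0, 1.92 and 5.08 CPM in *H. flavolineatum*, against 9.21, 15.4 and 27.4 CPM in *H. macrostomum* (log2 fold change -2.60 ± 0.32, adjusted p = 6.0e-07), and aquaporin 1 (AQP1, isogroup2465), a water channel, was higher (60.4 against 8.77 CPM, log2 fold change 2.27 ± 0.38, adjusted p = 4.0e-05). The amino acid carrier SLC38A5b (isogroup708) was at 30.5, 56.7 and 99.8 CPM in *H. flavolineatum*, against 114, 229 and 360.2 CPM in *H. macrostomum* (log2 fold change -1.90 ± 0.21, adjusted p = 6.9e-08) without overlap. Sodium-coupled neutral amino acid transporter 5 (isogroup692), also a name of SLC38A5, was higher (15.2 against 7.45 CPM, log2 fold change 1.55 ± 0.39, adjusted p = 0.0031). The call was lost with the pancreatic covariate (adjusted p = 0.022) and without *H. flavolineatum* fish 8 and 17 (adjusted p = 0.013). Reads of 1 gene split over isogroups and separate gene copies cannot be told apart here either. Chaperones were lower in 5 and higher in 1 of 11 tested isogroups (of 36), and 1 higher and 2 lower with the pancreatic covariate. Protein disulfide-isomerase (isogroup4586), which forms disulfide bonds in secreted proteins, was at 43.7, 89.2 and 174 CPM in *H. flavolineatum*, against 113, 155 and 548 CPM in *H. macrostomum* (log2 fold change -1.34 ± 0.28, adjusted p = 5.6e-04), a call lost with the pancreatic covariate (adjusted p = 0.021). The one higher member was subunit gamma of the T-complex chaperonin (isogroup74716, 1176 against 335 CPM, log2 fold change 1.68 ± 0.35, adjusted p = 5.1e-04).

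**Figure D5:**
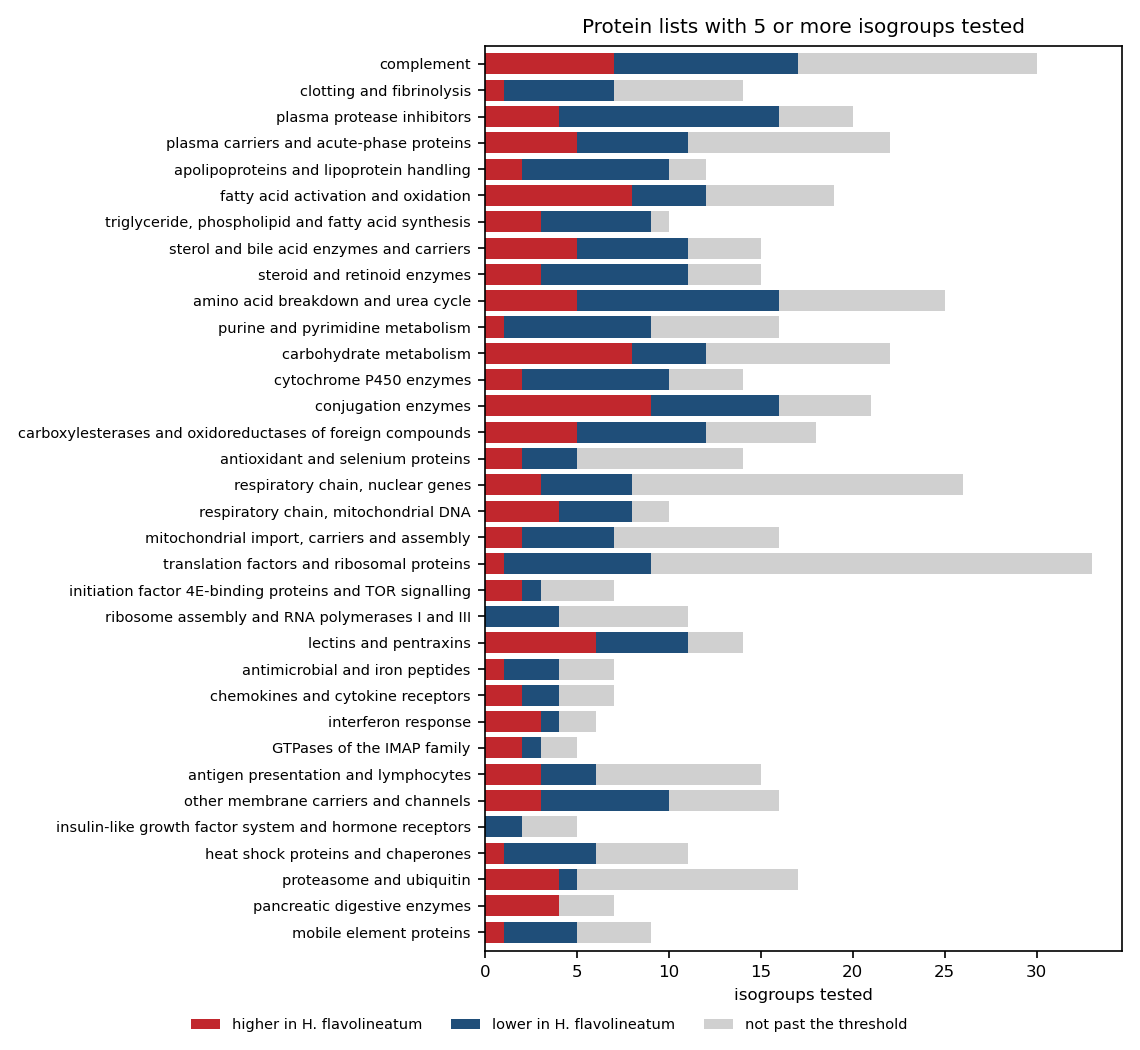
Number of tested isogroups (horizontal axis) in each of the 34 protein lists with 5 or more tested, split into higher in *H. flavolineatum* (red), lower (blue) and not past the threshold (grey). Protease inhibitors, apolipoproteins and cytochrome P450 enzymes have more blue than red, and fatty acid oxidation, carbohydrate metabolism and conjugation more red than blue.

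The plot of the protein lists sets these counts side by side. Against 9.4% higher and 11.9% lower over all tested isogroups, 26 of the 34 lists had a larger share of calls in each direction. Most names came from isogroups that the study had called, and 53.5% of all tested isogroups with a name were DEGs. The share called ran from 27.3% in ribosomal proteins and translation factors to 90% in lipid synthesis. It was near 53.5% in complement (56.7%), carbohydrate enzymes and chaperones (54.55% each), and clotting factors and plasma carriers (50% each), among others. Counts near that share are not a result about the pathway. The lists with the most negative median log2 fold changes among those with 10 or more tested isogroups were cytochrome P450 enzymes at -1.53 and lipid synthesis at -1.30. The highest were carbohydrate metabolism at 0.79 and fatty acid oxidation at 0.72.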

How the data were processed

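Livers of 36 wild grunts were sequenced by TagSeq, and the authors deposited 1 table of raw counts for 58532 isogroups, made by mapping reads with Bowtie2 (up to 5 matches per read) to a *H. macrostomum* liver transcriptome. Its version is not given in the sources used here. Protein names were available for 3233 isogroups. The 22 fish of this comparison were fitted with edgeR 4.0.16 (R 4.3.3, limma 3.58.1): filterByExpr by species (minimum count 10, minimum total 15), TMM scaling, and the quasi-likelihood test with Benjamini-Hochberg adjustment at 0.01. Standard errors were taken from the log2 fold change and F. DESeq2 1.42.0 was an alternative, and tables and plots were made with Python 3.11.15, pandas 2.3.3 and matplotlib 3.10.9. The fit was tested on simulated data.

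Members, 41 protein lists and tests were chosen with earlier results of these data known. Named isogroups were the 15 largest changes in each direction among informatively named DEGs without overlap, the 10 most abundant DEGs in each direction, the 2 smallest p in each direction per list, all egg proteins, and abundant markers of other cells. Isogroups named outside this rule, such as those that did not pass, were chosen after their values were seen. Alternatives were the scalings, filters, DESeq2, thresholds, fish left out or added, summing by name and the replicate block. The pancreatic covariate and leaving out fish 8 and 17 were added after seeing the data. Replicates were separate wild fish, and intervals and floors cover counting error only.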

Additional observations from a re-analysis of the deposited data

Results flagged for a closer look

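A signal appeared in libraries left out of the 22-fish comparison, which entered only the alternative fit with all 17 *H. flavolineatum*. Among the 6 *H. flavolineatum* left out for their vitellogenin, the lowest summed choriogenin level was 75430 CPM of the whole library, against 3065 CPM in the highest of the 11 *H. flavolineatum* that stayed and 336 CPM in the highest *H. macrostomum*.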

How the results depend on the processing

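Of the 153 named isogroups, none changed direction under any other setting in which it had a value. They were chosen for size of change, level and p in these same fish, so that a kept direction mostly describes the choice. The count of 1388 DEGs (612 higher and 776 lower) grew to 3998 (1551 higher, 2447 lower) with DESeq2 and to 4746 (1621 and 3125) with edgeR when low counts were not filtered, where more isogroups were tested, and to 2162 (1029 higher) at an adjusted p under 0.05. It was 873 (368 and 505) with the pancreatic covariate, and the cause was not tested. With the fish number as a replicate block it was 805 (337 and 468). In that fit only fish whose number occurs in both species bear on the species difference, so it rests on fewer fish. The numbers do not pair the fish: over 8 shared numbers the correlations of deviations were -0.07 to 0.05, and no fish correlated best with its own number. Leaving out single fish gave 1329 to 1489. All 17 *H. flavolineatum* gave 1731, 30 fish with *H. carbonarium* 1913, dropping fish 2 and 11 1371, dropping the shallow fish 8 and 17 1420, median-of-ratios scaling 1393, upper-quartile scaling 1395 and library totals 1429, of which 57.1% were higher, against 44.1% with TMM. Isogroups absent from *H. flavolineatum* and *H. macrostomum* numbered 56 and 19 at 50 counts or more, 4 and 2 at 200, and 14 and 9 with all 17 *H. flavolineatum*, against 20 and 5. Of the 153 named isogroups, 153 kept their call under DESeq2, 147 with library totals, 140 without a filter, 125 with the block and 123 with the covariate. Losses under settings other than the covariate are given beside the values for some isogroups only. In simulated counts for this comparison, 67, 67 and 66 of 6510 isogroups were changed by 1, 2 and 3 log2 units. Of these, 28.4%, 92.5% and 100% were recovered. A smaller share was changed there than the 21.3% called in the data, and the adjustment of p depends on that share. The share of real changes of 1 log2 unit that went uncalled was therefore not measured.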

Other observations

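Several groups of isogroups stand outside the pathways described above. All adjusted p-values here are from edgeR's quasi-likelihood test on the same 22 fish. Ribosome assembly factors and RNA polymerases I and III had no higher isogroup, 4 lower and 7 not past the threshold of 11 tested (of 45), and none was called with the pancreatic covariate. Guanine nucleotide-binding protein 3 (isogroup500) was at 3.298, 7.004 and 11.3 CPM in *H. flavolineatum*, against 11.2, 21.1 and 234 CPM in *H. macrostomum* (log2 fold change -2.42 ± 0.50, adjusted p = 4.9e-04). H/ACA ribonucleoprotein complex subunit 4 (isogroup4377), which modifies ribosomal RNA, was at 6.18, 15.1 and 26.2 CPM in *H. flavolineatum*, against 7.97, 30.4 and 373 CPM in *H. macrostomum* (log2 fold change -2.11 ± 0.50, adjusted p = 0.0019). Both calls were lost with the pancreatic covariate (adjusted p = 0.022 and 0.079), and both sets of levels overlapped. The highest level of each was in the same fish, *H. macrostomum* fish 6, which adds to the size of both changes. The next highest *H. macrostomum* were at 25.5 CPM for isogroup500 and at 89.7 CPM for isogroup4377. Proteins of mitochondrial import and assembly were higher in 2 and lower in 5 of 16 tested isogroups (of 43), and 2 higher and 1 lower with the pancreatic covariate and with library totals.

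Ubiquitin and proteasome isogroups had more higher than lower calls, 4 higher and 1 lower of 17 tested (of 55). A polyubiquitin (isogroup27811) was at 22.8, 43.5 and 57.8 CPM in *H. flavolineatum*, against 0, 3.800 and 6.33 CPM in *H. macrostomum* (log2 fold change 3.63 ± 0.29, adjusted p = 2.6e-10), without overlap. Ubiquitin-conjugating enzyme E2 H (isogroup18004) was at 0, 31.2 and 64.3 CPM in *H. flavolineatum*, against 0, 1.24 and 10.96 CPM in *H. macrostomum* (log2 fold change 4.01 ± 0.57, adjusted p = 4.9e-06). Ependymin (isogroup1308), a secreted glycoprotein first known from fish brain, was at 5.91, 9.27 and 30.2 CPM in *H. flavolineatum*, against 0.586, 3.56 and 8.08 CPM in *H. macrostomum* (log2 fold change 1.52 ± 0.31, adjusted p = 4.6e-04), and was not called with the pancreatic covariate (adjusted p = 0.021).

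Some large differences were in named transcripts outside every list. Merlin, an adaptor between membrane and cytoskeleton, had 6 tested isogroups with calls in both directions, among them isogroup45490 at 14.9, 33.7 and 89.6 CPM in *H. flavolineatum*, against 0, 0 and 0.703 CPM in *H. macrostomum* (log2 fold change 7.26 ± 0.49, adjusted p = 8.6e-12). The sum over all isogroups named merlin, tested or not, did not pass, at 218 ± 117 CPM in *H. flavolineatum*, against 117 ± 35.6 CPM in *H. macrostomum* (SD, n = 11 each; log2 fold change 0.90 ± 0.28, adjusted p = 0.014). Krueppel factor 4 (isogroup4737), a transcription factor of epithelia, was at 0, 0 and 0.943 CPM in *H. flavolineatum*, against 13.8, 32.3 and 54.4 CPM in *H. macrostomum* (log2 fold change -6.36 ± 0.41, adjusted p = 4.6e-12). Teneurin-3 (isogroup4749), a cell-surface protein of the nervous system, was at 0, 0.844 and 1.88 CPM in *H. flavolineatum*, against 14.9, 36.8 and 52.3 CPM in *H. macrostomum* (log2 fold change -5.18 ± 0.38, adjusted p = 4.8e-11).

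Isogroups named for mobile elements were 1 higher, 4 lower and 4 not past the threshold of 9 tested (of 100). A Tcb1 transposase (isogroup5393) was at 0, 0 and 1.41 CPM in *H. flavolineatum*, against 38.6, 73.9 and 161 CPM in *H. macrostomum* (log2 fold change -7.98 ± 0.46, adjusted p = 4.4e-13), and a reverse transcriptase (isogroup63) was at 0, 0.939 and 1.89 CPM in *H. flavolineatum* and 37.3, 53.6 and 83.2 CPM in *H. macrostomum* (log2 fold change -6.03 ± 0.37, adjusted p = 1.5e-12), both without overlap. Such copies can lie inside the transcripts of other genes, and which transcript was counted was not tested.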
